A study of Canis lupus familiaris with 21 samples.

Results

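Plasma extracellular vesicles (EVs) and prefrontal cortex were compared over the 9 sample numbers that have a library of each kind. The comparison uses 18 of the 21 libraries of the study, and 3 further EV libraries without a cortex library of the same number were not used here. The numbers were taken from the library names alone. All samples came from companion dogs: young dogs (y270, y353 and y377), old dogs (o250, o253 and o264) and dogs with canine cognitive dysfunction, CCD (c163, c354 and c358), where the letter stands for the condition. CCD is an age-linked loss of learning, orientation and social habits, and Alzheimer's disease in people is its usual point of comparison. The labels used here name no treatment or genotype, and they do not say that each number is 1 dog. The p-values below therefore measure the spread between these libraries.

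EVs are small membrane-bound particles that cells shed into body fluids, and plasma EVs come mostly from blood cells and vessel walls, with contributions from many organs. A cell's messenger RNA pool is dominated by a limited set of highly transcribed genes, such as those for ribosomal proteins and the respiratory chain. In cortex the genes of synapses, myelin and astrocytes are added to these. Libraries of polyadenylated RNA take up finished messenger RNA, while libraries of total RNA depleted of ribosomal RNA also hold transcripts without a poly(A) tail and unspliced transcripts. Per the labels, the cortex libraries are of the first kind and the EV libraries of the second. Material and library type therefore cannot be told apart in any level set across them. The authors also normalised the cortex and EV tables separately. Each library was brought here to reads per 1000000 gene reads, written RPM.

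Cortex libraries held 14.9 to 31.4 M reads, of which 4.19% to 7.91% lay on transposable element families. EV libraries held 27.5 to 45.0 M reads, with 76.1% to 84.2% on these families, which left 5.14 to 10.7 M reads on genes against 13.9 to 30.1 M in cortex. The 10 highest genes took 4.61% to 15.5% of gene reads in cortex and 11.3% to 36.4% in EVs. A gene with 3 reads in a library stands at 0.0998 to 0.215 RPM in cortex and at 0.280 to 0.583 RPM in EVs. That limit covers counting error only.

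The EV libraries held reads on nearly every gene of the annotation, and few of these genes stood out. At least 1 RPM was found for 30883 to 33356 genes in an EV library and for 16629 to 17155 in a cortex library. Thinned to the same 5.14 M gene reads, the ranges were 30482 to 33246 and 16517 to 16961 genes, a gap as wide as before. Among protein-coding genes, 82.1% to 88.7% lay within 4-fold of the library's median gene in EVs and 42.7% to 47.2% in cortex. The gene at the upper quartile had 3.18 to 3.74 times the level of the gene at the lower quartile in EVs and 42.4 to 58.2 times in cortex. Protein-coding genes without a read made up 0.0206% to 0.206% of those in an EV library and 11.5% to 16.3% in a cortex library. The 9 libraries of either material did not overlap in any of these measures.

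Averaged over libraries, 17092 genes reached 1 RPM in cortex and 32921 in EVs. Of these, 17015 did so in both, 15906 in EVs alone and 77 in cortex alone. No read fell on 5337 gene rows in any cortex library, and on 26 rows in any EV library. Of 31645 genes tested with limma (a linear model with moderated spread), 22002, or 69.5%, were higher in EVs and 6967, or 22.0%, were lower, at an adjusted p under 0.05. Over all 34981 gene rows, the 9 EV libraries lay above all 9 cortex libraries for 56.6% of rows and below them for 13.4%. Among the 17015 genes found in both materials the split was even, with 4605 above and 4657 below. Scaling to gene and transposable element reads together changed the split of calls to 16240 higher and 13122 lower, with 55.3% of calls higher in place of 76.0%. The median difference over tested genes was 2.38 on the log2 scale with gene reads, 1.75 with trimmed-mean (TMM) factors and 0.57 with gene and transposable element reads. For this reason classes are described below by rank within a library, which no scaling changes. Counts of members above or below cortex are given as well. They stand beside 56.6% above and 13.4% below over all gene rows, and 41.4% and 23.3% over protein-coding genes. These counts rest on scaling to gene reads and can change with the scaling. Ranks are by reads per gene and not per length, genes without reads share 1 rank, and the median gene row of cortex stood at percentile 48.7.

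**Figure D1:**
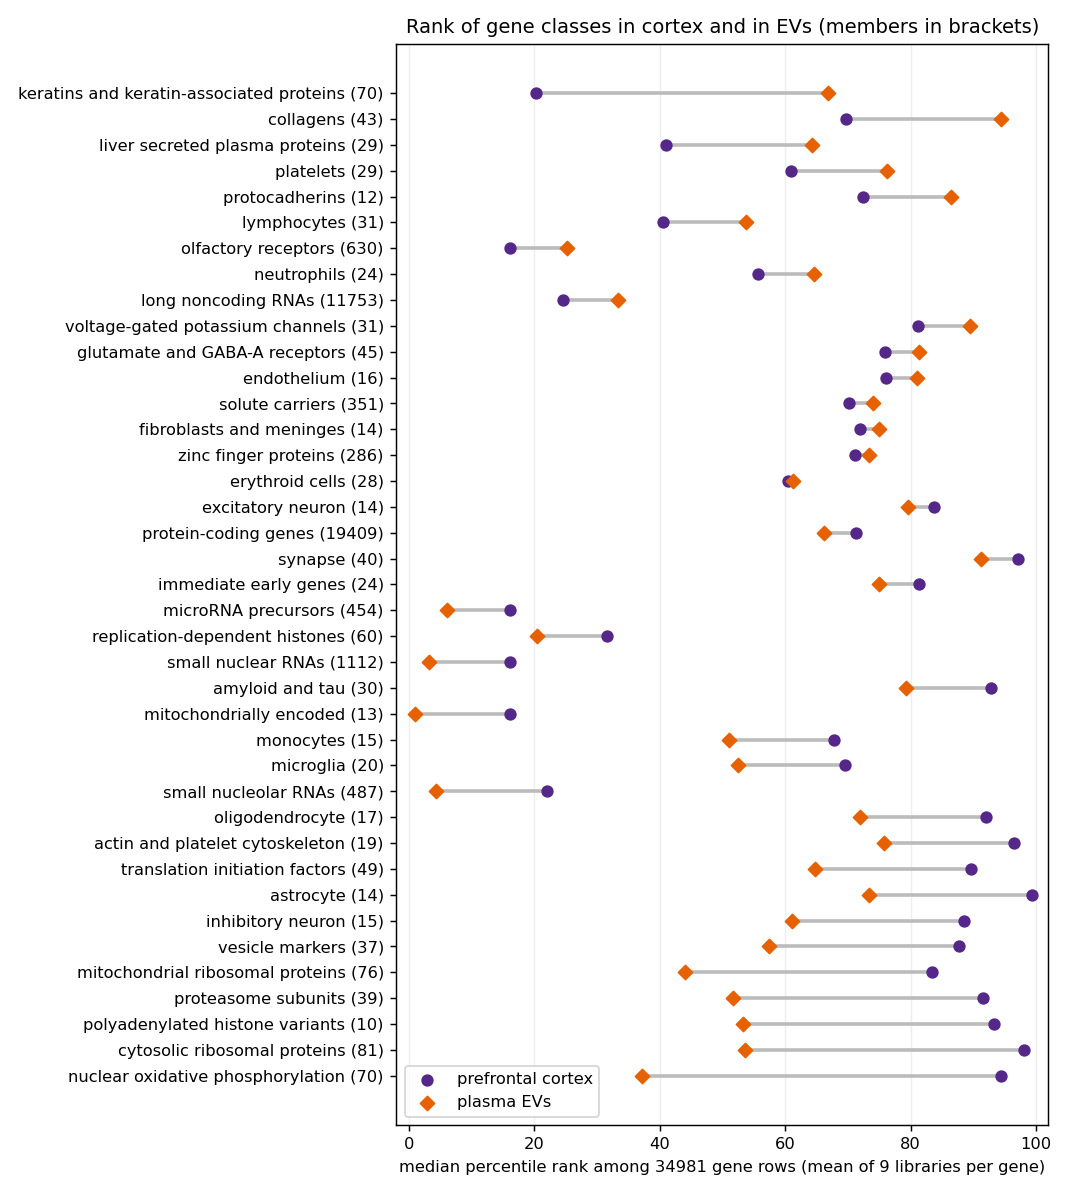
Median percentile rank of each gene class among all gene rows (horizontal axis, 0 to 100) in cortex (circles) and EVs (diamonds), each gene taken as its mean over 9 libraries and members given in brackets. Nuclear genes of oxidative phosphorylation stood at percentile 94.5 in cortex and 37.2 in EVs, while keratins stood at 20.3 in cortex and 66.9 in EVs.

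The genes that carry out the basic work of every cell were among those with the widest fall in rank. Cytosolic ribosomal protein genes, which build the ribosome, stood at a median percentile of 98.2 in cortex and 53.7 in EVs. Of 81 genes, 76 were lower in every EV library than in any cortex library, or 93.8% beside 13.4% of all gene rows. They took 2.59% ± 0.859 of gene reads in cortex (SD, n = 9, range 1.17% to 3.82%) and 0.135% ± 0.0586 in EVs (range 0.0833% to 0.279%). RPLP1, a protein of the ribosomal stalk, ranged over 319, 830.3 and 1287 RPM in cortex (lowest, median and highest library) and over 9.86, 14.9 and 65.1 in EVs. Its difference was -5.29 ± 0.23 on the log2 scale (SE, limma adjusted p = 1.4e-14). The only ribosomal protein gene of the opposite order was RPL3L, a form of RPL3 found in striated muscle, at 0.870 RPM in cortex and 15.8 in EVs.

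Nuclear genes of oxidative phosphorylation, the chain of complexes that makes ATP in mitochondria, ranked lower still in EVs. Of 70 genes, 64 lay below cortex in every EV library, or 91.4% beside 13.4% of all gene rows. ATP5F1B, the catalytic beta subunit of ATP synthase, had 456, 732 and 923 RPM in cortex and 7.44, 10.3 and 15.4 in EVs. ATP5PO, a stalk subunit of the same enzyme, had 161, 386 and 599.8 against 3.23, 4.57 and 8.16. Neither gene's libraries overlapped between the materials, and the log2 differences were -5.93 ± 0.16 and -6.11 ± 0.20 (limma adjusted p = 2.23e-17 and 3.64e-16).

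Mitochondrial ribosomal proteins followed the same order for 58 of 76 genes, or 76.3%, with a median percentile of 83.4 in cortex and 44.0 in EVs. MRPL35 was the only one above cortex in every EV library, at 14.3 ± 2.67 RPM in cortex and 122 ± 45.8 in EVs. Proteasome subunits, which form the cell's main protein-degrading complex, lay below cortex for 32 of 39 genes, or 82.1%. The 2 subunits of the opposite order were PSMA8, the subunit of the testis proteasome, and PSMB11, that of the thymus, both known from mouse and human. Of 49 translation initiation factor genes, 36 lay below, or 73.5%. Over all gene rows 13.4% lay below. EIF4A2, a helicase that opens messenger RNA for the ribosome, had 654, 874 and 983 RPM in cortex and 3.73, 5.84 and 9.40 in EVs. The median members of these 5 groups had 7.87 to 21.2 RPM in EVs, where the median gene row of a library had 8.30 to 16.1 RPM.

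Mitochondrially encoded messenger RNAs, which are transcribed inside the organelle from its own genome, took 5.08% ± 2.17 of gene reads in cortex and 0.0732% ± 0.0356 in EVs (SD, n = 9 each). ND4, a subunit of complex I and the highest gene of cortex, had 13499, 25125 and 48108 RPM there and 54.2, 127 and 273 in EVs. CYTB of complex III had 6889, 10926 and 24360 against 97.8, 252 and 499.7. ND4L, ND5 and ND6 were lower in EVs as well, with libraries that did not overlap. ND3 had 4.94 ± 2.63 RPM in cortex and 18.1 ± 5.94 in EVs, a log2 difference of 1.90 with gene reads and -0.25 when transposable element reads were added to the total. The other 7 of the 13 genes, namely ND1, ND2, COX1, COX2, COX3, ATP6 and ATP8, are listed at 0 in all 18 libraries, and since every cell uses them their level is not known from these tables. The class median therefore rests on rows at 0.

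**Figure D2:**
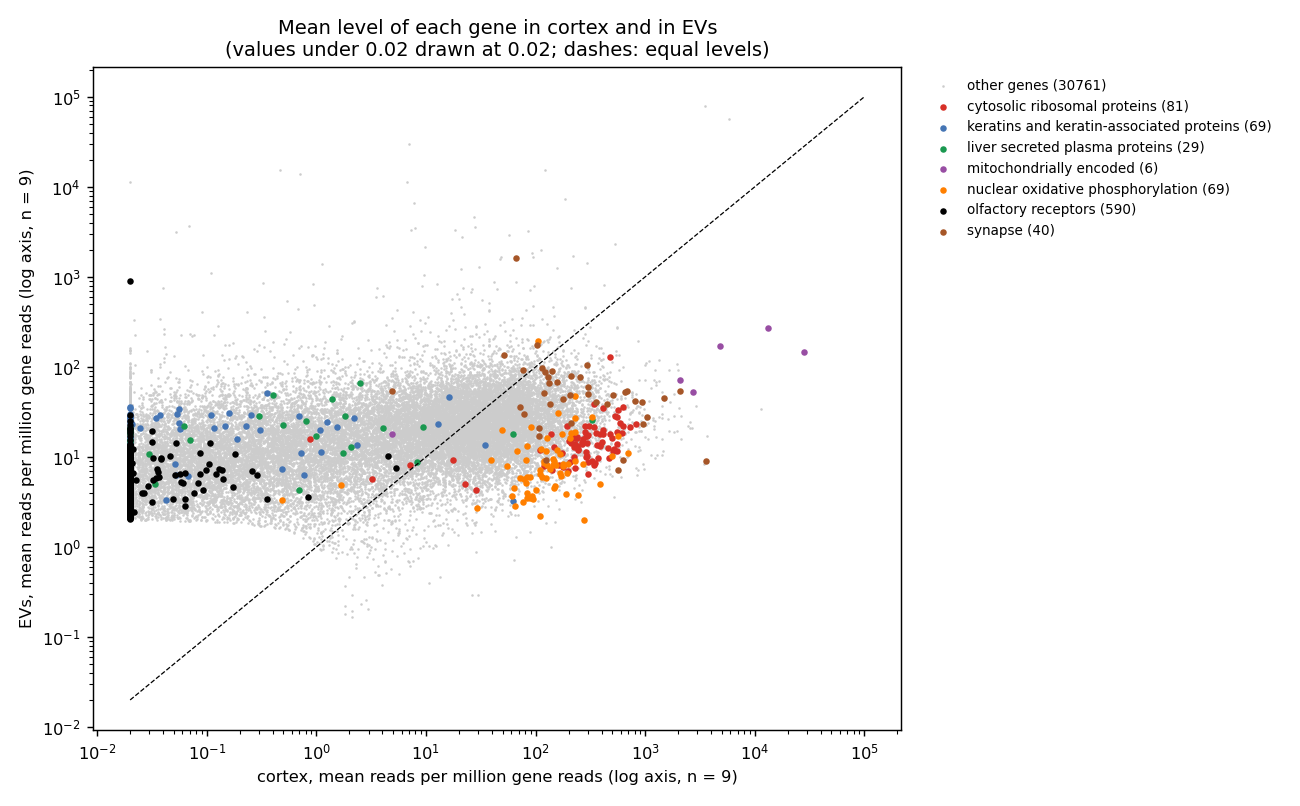
Mean level of each tested gene in cortex (horizontal) and EVs (vertical), in RPM on log axes, with 7 classes in colour and dashes at equal levels. Ribosomal protein and respiratory chain genes spread along a band under the dashes, while olfactory receptors and keratins lie at the left edge in cortex and between 1 and 100 RPM in EVs for nearly all members.

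Genes of brain cells were lower in EVs for many members, with wide differences between the cell types. In bulk RNA, fewer cells of a type and less RNA per cell cannot be told apart. Of 40 synapse genes, 26 lay below cortex in every EV library and 2 lay above, or 65% and 5%. Over all gene rows the shares were 13.4% below and 56.6% above. SNAP25, a core protein of synaptic vesicle fusion, had 2232, 3581 and 4936 RPM in cortex and 3.74, 8.53 and 17.9 in EVs. Its rank went from the top of cortex to percentile 41.1, with a log2 difference of -8.62 ± 0.20 (limma adjusted p = 4.67e-18). SYT1, the calcium sensor of vesicle release, had 1031 ± 381 RPM in cortex and 27.4 ± 10.5 in EVs. CAMK2A, a kinase of the postsynaptic density, had 2074 ± 830.2 and 53.3 ± 19.7. As a class, however, synapse genes kept a high rank, at a median percentile of 97.2 in cortex and 91.2 in EVs, with a change of -9.53 to -4.53 points over the 9 numbers.

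The 2 synapse genes above cortex were UNC13A, which primes vesicles for release, and GRIN2B, a subunit of NMDA receptors. UNC13A had 7.96, 23.7 and 319.5 RPM in cortex and 804, 1471 and 2513 in EVs. The highest cortex value was that of young cortex_377. GRIN2B had means of 4.86 and 53.8 RPM. Other neuronal families kept their rank as well: voltage-gated potassium channels went from percentile 81.2 to 89.4, and glutamate and GABA-A receptor subunits from 76.0 to 81.3. Among the latter, 16 of 45 genes lay above cortex and 12 below, or 35.6% and 26.7%. These shares lay near the 41.4% and 23.3% of protein-coding genes, beside 56.6% and 13.4% of all gene rows.

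Markers of inhibitory neurons stood at a median percentile of 88.5 in cortex and 61.2 in EVs. Of 15 markers, 6 lay below cortex in every EV library and 2 above, or 40% and 13.3%. SST, the peptide of a class of interneurons, had 81.2, 171 and 239.8 RPM in cortex and 3.99, 5.78 and 8.42 in EVs. Excitatory neuron markers were at percentile 83.7 and 79.6, with 3 of 14 above cortex, 5 below and 6 overlapping. The shares above and below were 21.4% and 35.7%. They stand beside 56.6% and 13.4% of all gene rows and 41.4% and 23.3% of protein-coding genes. SLC17A7, the vesicular glutamate transporter of cortical projection neurons, had 660.0 ± 228 RPM in cortex and 44.7 ± 14.8 in EVs. CUX2, a further marker of this list, overlapped at 75.5 ± 46.9 RPM in cortex and 86.1 ± 20.7 in EVs.

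Astrocyte genes stood at percentile 99.3 in cortex and 73.4 in EVs, and 11 of 14, or 78.6%, lay below in every EV library. GFAP, the intermediate filament of astrocytes, had 1429, 2215 and 2674 RPM in cortex and 22.2, 26.9 and 36.5 in EVs. Oligodendrocyte genes showed this order for 8 of 17, or 47.1%, beside 13.4% of all gene rows and 23.3% of protein-coding genes. MBP, a main protein of compact myelin, had 1113, 9949 and 27881 RPM in cortex and 23.2, 31.5 and 44.1 in EVs. The wide spread of MBP in cortex came with a low value in young cortex_377 and a high one in CCD cortex_354, and the EV libraries of these numbers stood at 30.4 and 23.2. Of 20 microglial genes 5 lay above cortex and 5 below, or 25% each, beside 56.6% and 13.4% of all gene rows. Their median percentile was 69.5 in cortex and 52.5 in EVs. C1QA, C1QB and C1QC, the chains of the first complement component, were among those below, and TMEM119 and TREM2, both microglial surface proteins, among those above.

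Of 30 genes tied to Alzheimer's disease, 17 lay below cortex and 5 above. These shares, 56.7% and 16.7%, stand beside 13.4% below and 56.6% above over all gene rows. The median percentile of the list was 92.9 in cortex and 79.3 in EVs. APP, the precursor of the amyloid peptide, had 903, 1514 and 1841 RPM in cortex and 18.4, 24.7 and 42.7 in EVs. APOE, a lipid carrier made by astrocytes and microglia, had 2458 ± 605.7 and 21.9 ± 8.48. MAPT, which encodes tau, had 262 ± 55.1 and 33.9 ± 6.46. GSK3B, a kinase that phosphorylates tau, was on the other side at 84.8 ± 21.5 in cortex and 3265 ± 1546 in EVs, a log2 difference of 5.14 ± 0.25 (limma adjusted p = 9.19e-14).

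**Figure D3:**
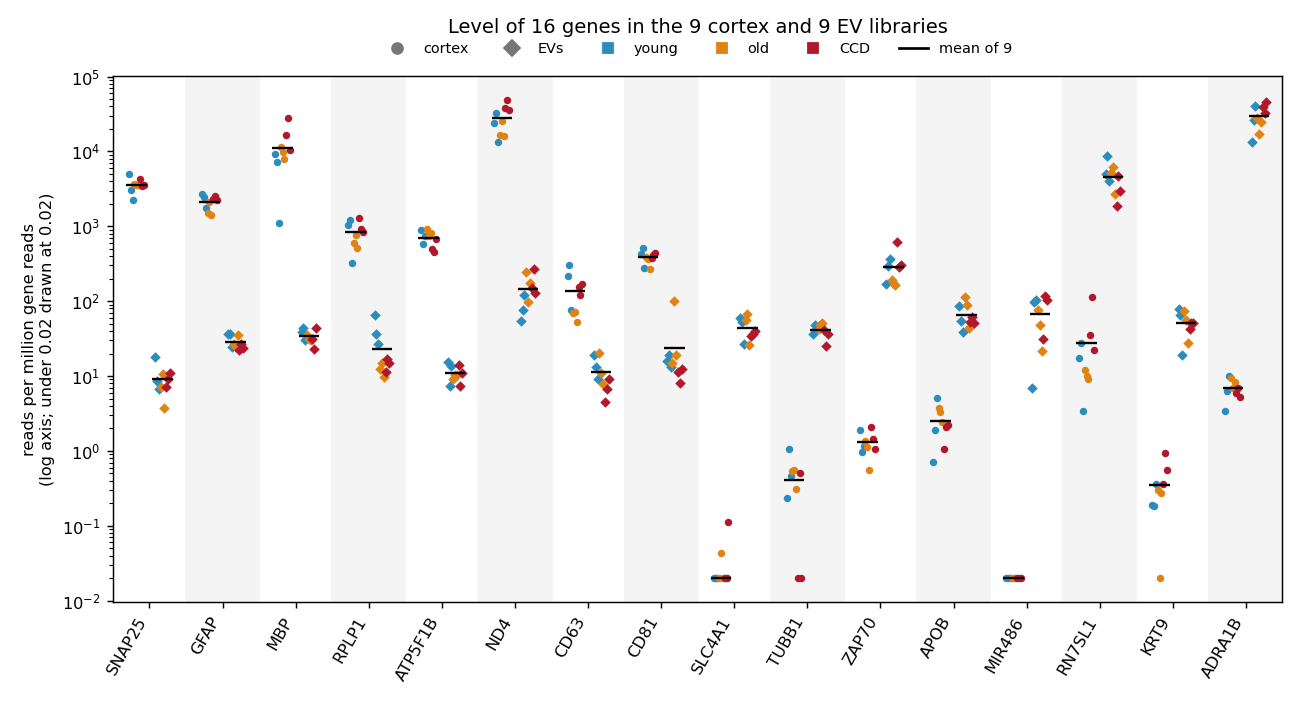
Level of 16 genes in each of the 9 cortex libraries (circles) and 9 EV libraries (diamonds), in RPM on a log axis, coloured by condition with black bars at the means. For all 16 genes the libraries of the materials do not overlap, with SNAP25 at 2232 or more in cortex and 17.9 or less in EVs, and SLC4A1 at 0.112 or less in cortex and 26.4 or more in EVs.

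Markers of lymphocytes and neutrophils were mostly higher in EVs, at levels within the range of other EV genes. Of 24 neutrophil genes 16 lay above cortex and none below, of 31 lymphocyte genes 24 and none, of 29 platelet genes 17 and 4, and of 28 erythroid genes 14 and 6. Over all gene rows the shares were 56.6% above and 13.4% below, and over protein-coding genes 41.4% and 23.3%. The platelet shares, 58.6% and 13.8%, lay near the first background and away from the second. The erythroid shares, 50% and 21.4%, lay between the 2 backgrounds. Monocyte genes lay above for 2 of 15. The median percentiles of neutrophil, lymphocyte, platelet and erythroid genes in EVs were 64.5, 53.7, 76.2 and 61.3, beside 66.2 for protein-coding genes. Together, neutrophil genes took 0.0533% ± 0.0304 of EV gene reads, lymphocyte genes 0.0895% ± 0.0159, platelet genes 0.0804% ± 0.0158 and erythroid genes 0.0732% ± 0.0166. In cortex the platelet list took 0.766% ± 0.205 and the erythroid list 0.0997% ± 0.00733. The libraries of the materials did not overlap for the platelet list, which holds CLU, NRGN and SPARC, and overlapped for the erythroid list.

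SLC4A1, the anion exchanger of red cells, had 0, 0 and 0.112 RPM in cortex and 26.4, 39.4 and 67.6 in EVs. ALAS2, the erythroid enzyme that starts heme synthesis, had 1.55 ± 1.49 and 25.3 ± 10.9. The beta globin HBB has no row in the tables, and HBM, the globin mu, had 0.881 ± 1.17 RPM in cortex and 10.8 ± 3.97 in EVs. Among the erythroid genes below cortex were PRDX2, BNIP3L, SLC25A39, CA2 and BLVRB. PRDX2, which breaks down peroxides, had 353.3 ± 74.2 RPM in cortex and 15.3 ± 6.33 in EVs.

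The platelet list as a whole had 58.6% of its genes above cortex and 13.8% below. These shares lay near the 56.6% and 13.4% of all gene rows and away from the 41.4% and 23.3% of protein-coding genes. Members of the list are given here as a description. TUBB1, the beta tubulin of the platelet ring, had 0, 0.466 and 1.07 RPM in cortex and 24.8, 42.1 and 51.9 in EVs. ITGA2B, the platelet fibrinogen receptor subunit, had 4.01 ± 1.17 and 41.2 ± 9.27. PPBP, a chemokine stored in platelets, had 0, 0.133 and 0.574 in cortex and 3.74, 9.51 and 29.9 in EVs, the highest of them in young EV_353. PF4, another platelet chemokine, has no row in the tables. The 4 platelet genes below cortex, NRGN, CLU, TMSB4X and SPARC, are all known in brain cells too. TMSB4X, which binds actin monomers, had 225, 507 and 686 RPM in cortex and 13.7, 20.9 and 68.0 in EVs.

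ZAP70, a kinase of T-cell receptor signalling, was the highest lymphocyte gene of EVs, with 0.550, 1.16 and 2.08 RPM in cortex and 164, 284 and 624 in EVs. PAX5, the B-cell transcription factor, had 0.278 ± 0.253 and 83.2 ± 22.5. Both differences passed the test (log2 7.22 ± 0.20 and 6.77 ± 0.22, limma adjusted p = 2.95e-17 and 1.83e-16). IL2RB, a subunit of the interleukin-2 receptor, had 0, 0.0474 and 1.49 against 45.5, 67.1 and 87.8.

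Of 29 genes for proteins that the liver secretes into plasma, 25 lay above cortex and 1 below, or 86.2% and 3.45%. Over all gene rows the shares were 56.6% and 13.4%, and over protein-coding genes 41.4% and 23.3%. The median gene of the list had 0.398 RPM in cortex. Olfactory receptors and keratins, also low in cortex, lay above it for 97.6% and 94.3% of genes. The median percentile of the liver list was 40.9 in cortex and 64.3 in EVs. APOB, the protein of low-density lipoprotein, had 0.711, 2.24 and 5.02 RPM in cortex and 38.5, 53.9 and 115 in EVs. ITIH1, a protein bound to hyaluronan in plasma, had 0.398 ± 0.409 and 48.4 ± 11.3. ALB, which encodes albumin, a main protein of plasma, had 0.510, 1.81 and 2.80 against 6.75, 10.6 and 14.6, and its rank went from percentile 55.0 to 48.2. APOA1 was the only gene of this list below cortex, at 326 ± 243 RPM in cortex and 26.0 ± 7.49 in EVs.

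Genes that mark EVs as particles were lower in the EV libraries than in cortex for 24 of 37 members. This is 64.9%, beside 13.4% of all gene rows. CD63, a tetraspanin of late endosomes, had 52.1, 121 and 304 RPM in cortex and 4.54, 9.05 and 20.4 in EVs. CD81, a further tetraspanin, had 268, 389 and 513 against 8.14, 14.9 and 99.9, with the highest EV value in old EV_253. CD9, the tetraspanin abundant on platelets, overlapped between materials at 8.69, 15.5 and 37.4 in cortex and 7.59, 12.1 and 17.8 in EVs (log2 difference -0.49 ± 0.23, limma adjusted p = 0.0526). These are protein markers, and their messenger RNA was measured here. The members above cortex were TSPAN8 and RAB27A, at means of 5.35 and 8.31 RPM in EVs.

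Gene families with little or no signal in cortex had reads in every EV library. Of 630 olfactory receptor genes, which serve smell in the nose, 2 reached 1 RPM in cortex and 625 did in EVs. Their 9 EV libraries lay above all cortex libraries for 615, or 97.6% beside 56.6% of all gene rows. The family took 0.00153% ± 0.000252 of gene reads in cortex and 0.442% ± 0.116 in EVs, and its median member had 4.95 RPM in EVs, at percentile 25.2. OR8S12 stood apart at 411, 749.6 and 1432 RPM in EVs with no read in cortex, at least 59479-fold higher against a limit of 3 reads over the 9 cortex libraries. OR52AE1 had 199.8 RPM in young EV_353 and 17.5 or less in the other 8 EV libraries. Members of this family are near-identical copies in places, so reads may be shared out among them.

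Keratins, the filament proteins of skin and hair, lay above cortex for 66 of 70 genes, or 94.3% beside 56.6% of all gene rows. Their median rank was 40.8 to 56.4 points higher in EVs over the 9 numbers. KRT9, known from the skin of palms and soles in human, had 0, 0.305 and 0.932 RPM in cortex and 19.4, 51.5 and 78.4 in EVs. The 2 keratins below cortex were KRT10 and KRT222. Collagens, the fibre and sheet proteins of matrix, went from percentile 69.6 to 94.5. The share of collagens above cortex, 24 of 43 or 55.8%, lay near the 56.6% of all gene rows and above the 41.4% of protein-coding genes. No collagen was below, beside 13.4% of all gene rows and 23.3% of protein-coding genes. COL1A2, a chain of fibrillar collagen, overlapped at 3.04, 13.9 and 693 RPM in cortex and 30.2, 42.8 and 72.5 in EVs. In cortex it had at least 273 RPM in 3 libraries (y353, y377 and c358) and at most 19.4 in the other 6. PTGDS, an enzyme of meningeal cells among others, was highest in the same 3 libraries, at 4084 or more against 1485 or less in the other 6. Their part in the class values of cortex was not tested.

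Transcript classes that a poly(A) selection tends to miss were set beside those it takes up. Replication-dependent histone genes, whose messenger RNA ends in a stem-loop without a poly(A) tail, lay above cortex for 40 of 60 members, or 66.7% beside 56.6% of all gene rows, and below for 1, H2BC21. The replacement histones, whose messages are polyadenylated, lay below for 7 of 10 and above for none, beside 13.4% of all gene rows below. H3C15 had 0.897, 1.43 and 2.46 RPM in cortex and 17.6, 23.6 and 26.9 in EVs, while H3-3B had 165, 235 and 380.4 against 10.2, 14.8 and 20.4. By rank within a library, however, replication-dependent histones stood at percentile 31.6 in cortex and 20.5 in EVs, so they were not among the high EV genes. The 2 materials differ here in library type as well as in source.

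RN7SL1, the RNA of the signal recognition particle, had 3.39, 17.2 and 112 RPM in cortex and 1860, 4699 and 8670 in EVs. RPPH1, the RNA of ribonuclease P, had 2.15 ± 1.90 and 56.2 ± 17.1. Small nuclear RNA rows, of which there are 1112, were mostly under 1 RPM: 6 reached that level in cortex and 181 in EVs. Small nucleolar RNA rows reached 1 RPM for 26 of 487 in cortex and 123 in EVs. Long noncoding RNAs took 1.84% ± 0.0841 of gene reads in cortex and 16.2% ± 2.07 in EVs, and 10082 of 11753 lay above cortex, or 85.8% of them. Protein-coding genes took 91.2% ± 3.0 and 66.2% ± 2.75.

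Rows of microRNA precursors reached 1 RPM for 27 of 454 in cortex and 177 in EVs. Such rows count reads over a hairpin, and the libraries were not made for mature microRNAs. MIR486 and MIR451, both known as abundant in red cells, had no read in any cortex library and 6.87, 76.1 and 119 and 1.62, 16.3 and 32.5 RPM in EVs. Against a limit of 3 reads over the 9 cortex libraries they were at least 4401-fold and 1066-fold higher. Both were chosen after their values were seen, and in young EV_270 they had 6.87 and 3.13 RPM. MIR451 was lowest in CCD EV_163. The highest precursor row of cortex, MIR8819, had 118, 129.9 and 168 RPM there and 0.241, 0.746 and 2.99 in EVs.

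The 10 highest rows of the EV libraries held no member of the blood cell or liver lists. LOC119877774 and LOC119877775, which the annotation used here leaves without a gene type, had means of 78610 ± 26333 and 56410 ± 26746 RPM in EVs, and 3479 ± 3360 and 5870 ± 4786 in cortex, where they were among the 10 highest as well. Next came ADRA1B, an adrenergic receptor, with 13532, 28099 and 45705 RPM in EVs and 3.46, 6.95 and 10.1 in cortex. HOXB7, a transcription factor of body patterning, had 6984, 16248 and 23964 in EVs and at most 0.832 in cortex, a log2 difference of 13.94 ± 0.19 (limma adjusted p = 1.07e-20). HDGF, ADCK1, MLIP, LOC106558610 and LOC102151911 were the others, at means of 6550 to 15354 RPM. Each of these was high in all 9 EV libraries. NMNAT2, an enzyme that keeps axons intact, was counted among the 10 through 1 library: young EV_377 had 64611 RPM and the other 8 had 39.3 to 84.5, against 114 to 298 in cortex (limma adjusted p = 0.594).

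The question of whether age or CCD moves a gene alike in both materials was put to the difference of changes, since a fixed difference between the library types cancels there. In the contrasts of CCD with old, of old with young and of CCD with young, 0 of 31645 genes passed with limma, and the share called was 0%, 0% and 0%. The smallest adjusted p was 0.199, 0.0858 and 0.485, and 1905, 830 and 1689 genes had an unadjusted p under 0.05. The counts were 0 in each with edgeR on the recovered reads 33, 28 and 41 with DESeq2, and 140, 157 and 77 with limma and library weights, so they depend on the fit. With 3 libraries a group, a p above the threshold does not show that the changes were alike.

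Across the 17015 genes found in both materials, the changes in EVs and in cortex were set side by side. Pearson's r across genes was -0.03 for CCD against old, 0.04 for old against young and -0.05 for CCD against young. The sign was shared by 52.3%, 52.1% and 51.4% of genes. The SD of the changes across genes was 0.323, 0.277 and 0.310 in EVs and 0.556, 0.492 and 0.543 in cortex. Genes are not independent replicates, and the 3 contrasts share libraries.

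The gene nearest to passing was HAPLN2, a link protein of the nodes of Ranvier in myelinated axons, in old against young. In cortex it had 90.7, 78.9 and 80.8 RPM in old dogs and 21.5, 30.5 and 17.3 in young dogs. In EVs it had 32.7, 32.3 and 28.7 in old and 37.0, 42.1 and 42.5 in young dogs. Old dogs lay above young dogs in cortex and below them in EVs without overlap, with a difference of changes of -2.24 ± 0.34 on the log2 scale (limma adjusted p = 0.0858). It passed when genes needed 1 RPM in each material (limma adjusted p = 0.0305), a mean of at least 10 RPM (0.0292), or without young EV_270 (0.0372), CCD cortex_354 (0.0462) or young cortex_353 (0.0239).

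For CCD against old, HPSE2, a relative of heparanase that does not cut heparan sulfate, was higher in CCD EVs and lower in CCD cortex without overlap. Its EV values were 428, 434 and 372 RPM in CCD and 216, 224 and 163.2 in old dogs, while its cortex values were 1.01, 1.86 and 2.58 in CCD and 6.33, 4.16 and 7.34 in old dogs. The difference of changes was 2.54 ± 0.48 (limma adjusted p = 0.199). Without young cortex_377 it passed (limma adjusted p = 0.0494). GRHL1, an epithelial transcription factor, followed with EV values of 19.0 to 42.5 in CCD and 142 to 292 in old dogs (difference of changes -3.03 ± 0.56, limma adjusted p = 0.199).

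In CCD against young the gene of smallest p, HAPLN2 aside, was NCCRP1, an F-box protein of skin. It had 7.01, 3.37 and 5.78 RPM in CCD cortex and 0.427, 0.186 and 1.5 in young cortex, while its EV groups overlapped (difference of changes -2.79 ± 0.54, limma adjusted p = 0.485). No gene named for these 3 contrasts passed the test.

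Whether a number that is high for a gene in cortex is also high in EVs was asked for every gene with Spearman's rho over the 9 numbers. The median rho over 16969 genes was 0.02, with quartiles of -0.23 and 0.27. After adjustment 0 genes passed, or 0%, with a smallest adjusted p of 0.748 by the exact permutation test. Unadjusted, 673 genes, or 3.97%, had an exact permutation p under 0.05, of which 381 were positive and 292 negative. Between whole profiles, rho across 17015 genes was 0.19 to 0.36 for a cortex and an EV library of the same number and 0.16 to 0.36 for those of different numbers. It was 0.80 to 0.95 between EV libraries and 0.87 to 0.98 between cortex libraries. Young EV_377 was the EV library most like the cortex library of every number.

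**Figure D4:**
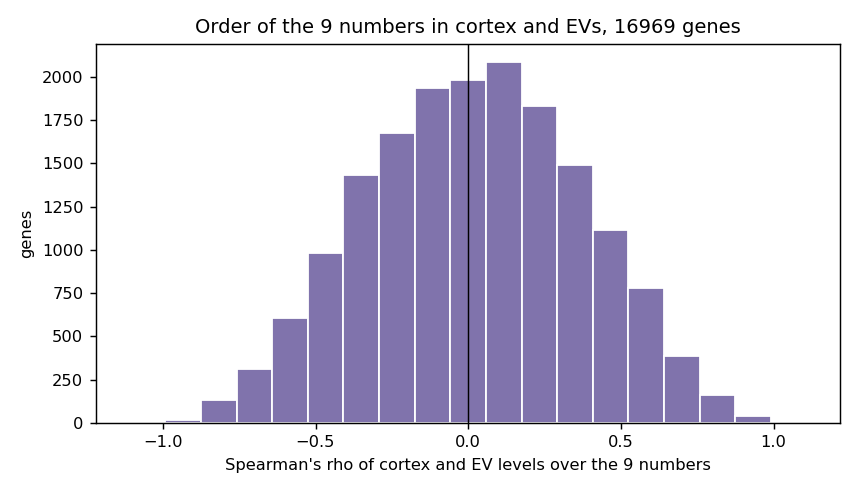
Number of genes (vertical axis) by Spearman's rho of the cortex and EV level over the 9 numbers (horizontal axis, each bar spanning 7 possible values of rho). The distribution centres near 0, with a median of 0.02 over 16969 genes.

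Genes of neutrophils were examined by number after their values were seen. Numbers y270 and o253 were both above the other 7 for 8 of 24 neutrophil genes in cortex, for 8 in EVs and for 5 in both materials, which were S100A8, S100A9, S100A12, MMP8 and PADI4. The other members did not show this order in both materials. Among EV libraries, those of y270 and o253 also had the highest median gene row, at 16.1 and 14.4 RPM. The median olfactory receptor and the median long noncoding RNA were highest in these EV libraries too. An order of this kind in EVs was thus not limited to neutrophil genes. How many of all genes show it was not counted in either material, so these counts have no background. ALPL, a phosphatase of neutrophils and other cells, was lowest in y270 in cortex, at 4.70 RPM against 20.3 to 62.5 in the other 8. MPO, the peroxidase of neutrophil granules, had 7.07 and 8.96 RPM in the cortex of y270 and o253, within the 6.599 to 15.1 of the other 7. S100A9, a calcium-binding protein stored in neutrophils, had 33.0 and 28.3 RPM in y270 and o253, and 0.865 to 2.95 in the other 7 cortex libraries. In EVs the same numbers were the highest, with 331 and 75.03 against 7.14 to 40.3. S100A12, a further member of that family, had 13.1 and 11.3 in these cortex libraries against 0.0998 to 0.903, and 324 and 159 in the EV libraries against 4.46 to 22.7. S100A8, the partner of S100A9, was highest in both numbers in both materials, at 21.3 and 18.1 in cortex and 54.5 and 25.7 in EVs. Since 2 numbers stand apart, no correlation is given over all 9. Over the other 7 numbers Pearson's r was 0.76 for S100A9, 0.81 for S100A12 and 0.08 for S100A8, and Spearman's rho was 0.86, 0.82 and 0.25, as a description with no test. None of these 3 S100 genes was called among the 16969 genes.

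**Figure D5:**
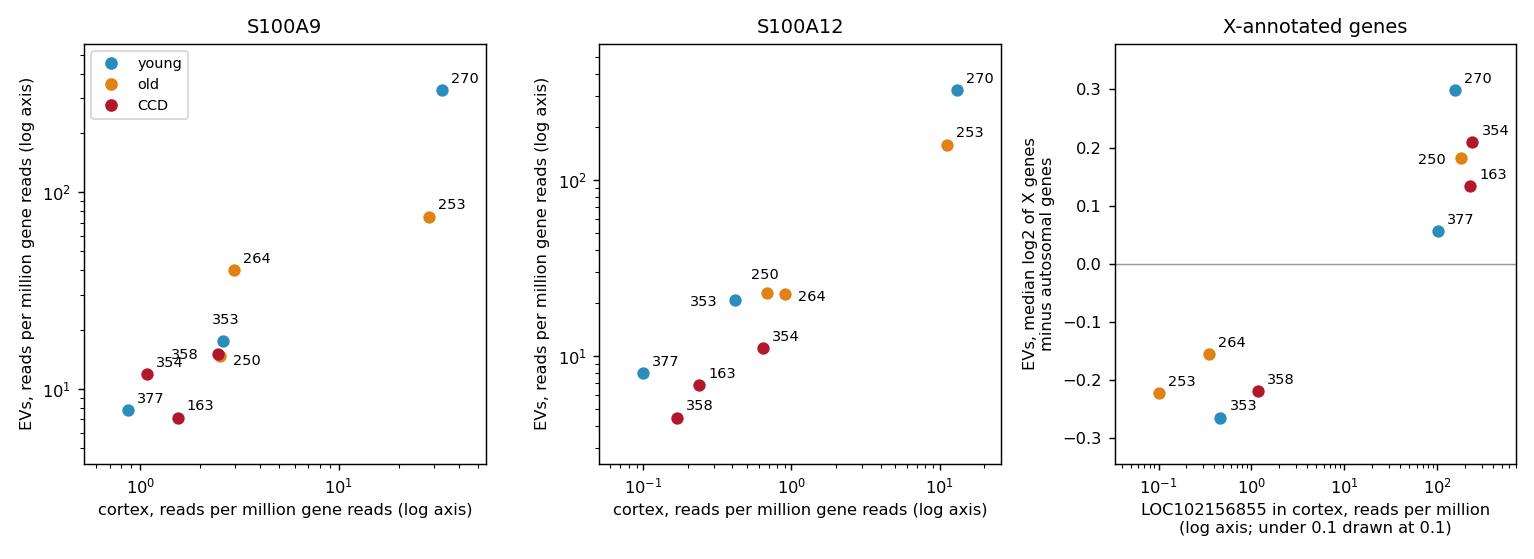
Level of S100A9 and S100A12 in cortex (horizontal) and EVs (vertical) for the 9 numbers, in RPM on log axes, and, at the right, LOC102156855 in cortex against the median log2 level of chromosome X genes less that of autosomal genes in EVs. Numbers y270 and o253 are highest for both S100 genes in both materials, and the 5 numbers above 100 RPM for LOC102156855 are the 5 with an X measure above 0.

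A further measure that kept to the numbers was the level of genes annotated to chromosome X. In EVs the median log2 level of 487 such genes, less that of 16059 autosomal genes, each relative to its median over the EV libraries, was 0.30 in y270, 0.06 in y377, 0.18 in o250, 0.13 in c163 and 0.21 in c354. It was -0.26 in y353, -0.22 in o253, -0.16 in o264 and -0.22 in c358. In cortex the same measure stayed between -0.03 and 0.01. LOC102156855, an X-annotated noncoding row, had 157, 103, 181, 227 and 239.9 RPM in the cortex libraries of the first 5 numbers, in that order. In the other 4 it had 0.464, 0, 0.353 and 1.18. Both values were looked up after other results were known, and the sets were read off the measures themselves, so no test is given.

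Of 3 measures of whole libraries compared over the 9 numbers, none passed by Pearson's r. The share of reads on transposable elements gave r = 0.37 and rho = 0.25 (exact permutation p = 0.324 and 0.521, adjusted 0.486 and 0.708, n = 9). The share of gene reads on the 10 highest genes gave r = 0.06 and rho = -0.15 (exact permutation p = 0.868 and 0.708, adjusted 0.868 and 0.708, n = 9). The number of genes at 1 RPM gave r = -0.64 and rho = -0.80 (exact permutation p = 0.0629 and 0.0138, adjusted 0.189 and 0.0415, n = 9). Numbers with more genes detected in cortex thus had fewer detected in EVs by rank, and without o253 and y353, the farthest from the median in cortex, the relation no longer passed (r -0.68 and rho -0.71, exact permutation p = 0.0958 and 0.0881, n = 7). The relations of the other measures without their 2 farthest numbers were r = 0.18 (without c163 and c354) and r = -0.071 (without y353 and c354).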

How the data were processed

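Prefrontal cortex and plasma EV RNA of dogs was sequenced, per the labels from polyadenylated RNA and from ribosome-depleted total RNA. Per the submitters' processing notes STAR and DESeq2 were used; their versions, the build, the annotation, the counting tool and its strand setting were not given in any source used. For each material the authors deposited a table of signal per gene, called normalised counts. Divided by 1 factor per library, whole reads were recovered for 100% of values (tolerance 0.01), which says little for young cortex_353, whose factor is near 1.

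Of 35803 rows, 34981 are genes and 822 are transposable element families, left out of the totals. Levels are RPM, reads per 1000000 gene reads. Genes with a mean of at least 1 RPM over 18 libraries were tested as log2(value + 0.5) with limma 3.58.1 (R 4.3.3), with 6 groups of material and condition, Benjamini-Hochberg adjustment and a threshold of 0.05. Fold changes are on that log2 scale, which understates low genes. Recovered reads were tested with edgeR 4.0.16 and DESeq2 1.42.0. Per-gene order over numbers used exact permutation of Spearman's rho (scipy 1.17.1), two-sided, as all tests here. The limma fit was tested on simulated data first, with changes planted in the EV libraries of CCD. The difference of changes for CCD against old was recovered for 0% of 67 genes planted at 2-fold. It was recovered for 20.9% of 67 at 4-fold and 72.7% of 66 at 8-fold, and 5 unchanged genes were called. RefSeq (assembly UU_Cfam_GSD_1.0) matched 95.4% of symbols and gave gene types and chromosomes alone, without coordinates; no sequence was read.

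The members and lists were chosen with earlier results of these data known. Class counts were taken over all gene rows, a choice made after the data were seen. The genes named are, per direction, the 10 with a symbol other than a locus number and the largest difference that passed, did not overlap and reached 20 RPM, the 10 highest of each material, up to 4 highest members of a class, up to 5 per direction of smallest p per contrast of changes, and 25 fixed genes, of which 22 have a row. Not all are described, and some items are not reported here. Exceptions within a class, OR8S12, S100A12, RN7SL1, RPPH1, MIR486, MIR451, HBM, ITGA2B, SLC4A1, LOC102156855 and mitochondrial genes beyond CYTB and COX1 were added after their values were seen. The correlation of deviations was -0.02 to 0.13 for same-numbered libraries (median 0.02, 9 pairs). For different numbers of the same condition it was -0.097 to 0.043 (median -0.01, 18 pairs). Numbers y353, o250 and y270, at 0.13, 0.08 and 0.05, lay above every pair of different numbers, and the rest lay within their range. Deviations were taken from the means of 3 libraries of a condition. Same-number and different-number values are therefore not independent, and the range of the latter is no separate reference. By the rule used the samples were not treated as paired, which does not show that the numbers fail to link them. Alternatives were other pseudocounts, filters, scalings, library weights, tools, the replicate block and leaving out each library.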

Additional observations from a re-analysis of the deposited data

Results flagged for a closer look

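In 23 of 128 checked values, a library lay far from the other 8 of its material. The rule flags about 1 in 20 values that are independent and normally distributed. The values checked here share libraries and genes, so the count cannot be set against that rate. Young EV_270 held 0.127% of gene reads on neutrophil genes (0.0309% to 0.0744% in the others), 0.0835% on monocyte genes, 0.135% on actin and platelet cytoskeleton genes, 0.279% on cytosolic ribosomal protein genes (0.0833% to 0.159%), 0.152% on translation initiation factors, 0.0468% on replication-dependent histones and 0.275% on voltage-gated potassium channels. In reads per 1000000 gene reads (RPM) it had 54.5 for S100A8, 331 for S100A9 and 17.9 for SNAP25 (3.74 to 10.8).

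Among the other EV libraries, young EV_377 had 0.165% of gene reads on nuclear oxidative phosphorylation genes (0.0618% to 0.0990%), and CCD EV_163 had 0.236% on small nuclear RNAs. Young EV_353 had 100.2 RPM for B2M and 29.9 for PPBP, and old EV_253 had 99.9 for CD81 (8.14 to 19.2).

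In cortex, CCD cortex_354 had 15.5% of gene reads on its 10 highest genes (4.61% to 10.1%), 0.108% on inhibitory neuron genes (0.148% to 0.175%), 0.0119% on other abundant small RNAs and 0.00800% on small nuclear RNAs. Young cortex_270 had 1.20% on vesicle markers, 0.264% on immediate early genes and 0.0201% on replication-dependent histones. Old cortex_253 had 5.02 RPM for ALAS2.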

How the results depend on the processing

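For the material difference of named genes, 5442 values under alternatives kept their direction and side of the threshold, 27 lost the call, 58 gained it and 12 reversed. Genes called higher in EVs numbered 7416 when 1 RPM was needed in each material and 7812 with a mean of at least 10, since fewer genes are tested, and genes called lower numbered 13122 with transposable element reads in the total. The replicate block gave 22013 higher, 6962 lower and 0 differences of changes, so it changed no count of calls by over 1.5 times.

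Differences of changes for CCD against old, old against young and CCD against young numbered 33, 28 and 41 with DESeq2 and 140, 157 and 77 with library weights (by the gene-by-gene method, taken after the default did not converge). Leaving out 1 library gave 0 to 7, 0 to 6 and 0 to 2. The 7 came without young cortex_377 and the 6 and 2 without young EV_270; others came without CCD EV_358, CCD cortex_358, CCD cortex_354, young cortex_270 and young cortex_353 (1 to 3 genes each). For old against young both stricter filters gave 1, HAPLN2. No order over numbers was called under any alternative, and with levels centred on condition means, permuted within conditions, 6.29% of genes had an unadjusted p under 0.05.

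The relation of the share on the 10 highest genes was -0.071 without 2 numbers, -0.37 centred on condition means and -0.15 to 0.38 without 1 number. That of genes at 1 RPM was -0.73 to -0.57, with an exact permutation p of 0.0389 without y353.

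With transposable element reads in the total these differences reversed: ANK1 -0.73, MPO -0.53, VCAN -1.12, FOSL2 -1.82, H1-1 -0.15, H2BC15 -0.41, KRT124 -0.47, ZNF358 -1.02, COL7A1 -0.31, ND3 -0.25 and GP9 -0.20. With TMM factors FOSL2 was -0.52. Class medians reversed with TMM factors to -0.14 for zinc finger proteins, -0.42 for voltage-gated potassium channels and -0.25 for protein-coding genes. With transposable element reads they reversed to -1.33, -1.69 and -1.44 for these, -0.22 for protocadherins and -1.20 for solute carriers. By rank, olfactory receptors changed by -4.70 points with 1 RPM in each material, and small nuclear RNAs by 21.0 with that filter and 48.2 with a mean of at least 10, where few members are left. Class medians relative to all genes were not used, because the median over tested genes moved from 2.38 to 0.10 with that filter.

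Depth limits genes with few reads, such as small RNA rows. Library type and material differ together, and the labels give no dog per number.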
